A study of Mus musculus with 15 samples.

Results

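Gene expression at 23 h was compared with that at 10 h in ILC2 and ILC3, the innate lymphoid cells of groups 2 and 3, from the mouse small intestine. Every library labelled 10 h or 23 h was used, 2 per cell type and time, which made 8 of the 15 libraries of the series. Cell type entered the model as a block, so that differences shared by ILC2 and ILC3 were tested together. The question was which genes differ in both cell types between a late and a mid-cycle time of day. The series measured polyA RNA of both cell types at 4, 10, 16 and 23 h of zeitgeber time (ZT), the hour of the animals' light schedule, counted by convention from lights on.

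The 4 groups were ILC2 at ZT10, ILC2 at ZT23, ILC3 at ZT10 and ILC3 at ZT23. All animals were female, and no treatment, strain, genotype or age was given in the sources used here. For each time the small intestines of 6 mice were digested, the cells were put together, and the stained mixture was sorted by flow cytometry. The replicates are called biological, but it is not stated whether both libraries of a group trace back to the same pool of cells. Nor is this stated for the ILC2 and ILC3 libraries of a time. If a single pool gave all libraries of a time, a difference between times and one between pools cannot be told apart. P-values therefore reflect the scatter among these samples alone, and that scatter may be technical. ILC2 libraries carry batch number 1 and ILC3 libraries number 2. A difference between the cell types and one between the batches therefore cannot be told apart, while each cell type's 23 h and 10 h libraries share a batch.

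The circadian clock of mammalian cells is a feedback loop. CLOCK and its partner BMAL1 (gene Arntl) switch on the period, cryptochrome and REV-ERB genes, whose proteins then repress the activators, and the same loop drives output factors such as DBP, TEF and HLF. ILC2 are known for type 2 cytokines that act on mucus, worms and fat tissue, and ILC3 for interleukin-22, which protects the gut lining.

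Depth ranged from 4016298 counts (ILC2 10 h replicate 1) to 24794403 (ILC3 10 h replicate 2). The libraries matched their cell type labels. Gata3, the lineage factor of ILC2, was at 304 to 669 CPM in ILC2 and 15.3 to 40.9 CPM in ILC3, where CPM is the count per 1000000 counts of a library after scaling with TMM factors (trimmed mean of M values). Il23r, a cytokine receptor gene of ILC3, was at 65.5 to 156 CPM in ILC3 and 1.22 to 7.68 CPM in ILC2. Each of 2 libraries stood apart from the other library of its group. In ILC2 23 h replicate 1 the plasma cell gene Jchain took 15.7% of all counts, against 1.85% to 4.796% in the other 3 ILC2 libraries. In ILC3 23 h replicate 2 the summed level of 26 intestinal epithelial genes was 11610 CPM, against 824 to 1578 CPM in the other 3 ILC3 libraries.

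Dbp, an output transcription factor of the clock, was the gene that fell from 10 h to 23 h in both cell types together. Of 14051 genes tested with edgeR's quasi-likelihood test, 1 had an adjusted p (Benjamini-Hochberg over all genes tested) under 0.05, or 0.00712%, and none was higher at 23 h by this rule. Dbp (Entrez 13170, chromosome 7, 45705100 to 45710203) was at 55.7 and 51.7 CPM in the ILC2 libraries of 10 h and at 11.6 and 8.12 CPM in those of 23 h. In ILC3 it was at 81.8 and 72.6 CPM at 10 h and at 15.7 and 8.96 CPM at 23 h. Every library of 23 h lay below every library of 10 h. Dbp fell by 2.55 ± 0.23 on the log2 scale (SE, 4 libraries per time), a 5.86-fold lower level, with an adjusted p of 0.00725. In the single cell types the log2 fold changes were -2.46 ± 0.34 in ILC2 and -2.64 ± 0.34 in ILC3. The difference between these values was -0.18 ± 0.46 and did not pass the test (adjusted p = 1.00). In bulk samples, fewer cells that express a gene and less of its RNA per cell cannot be told apart. The call was lost when 1 of 3 libraries was left out: the adjusted p was 0.0731 without ILC2 10 h replicate 1, 0.0663 without ILC2 23 h replicate 2 and 0.0617 without ILC3 10 h replicate 1. Over all alternatives it ran from 6.89e-21 (DESeq2) to 0.0731, and the log2 fold change from -2.71 to -2.39.

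**Figure D1:**
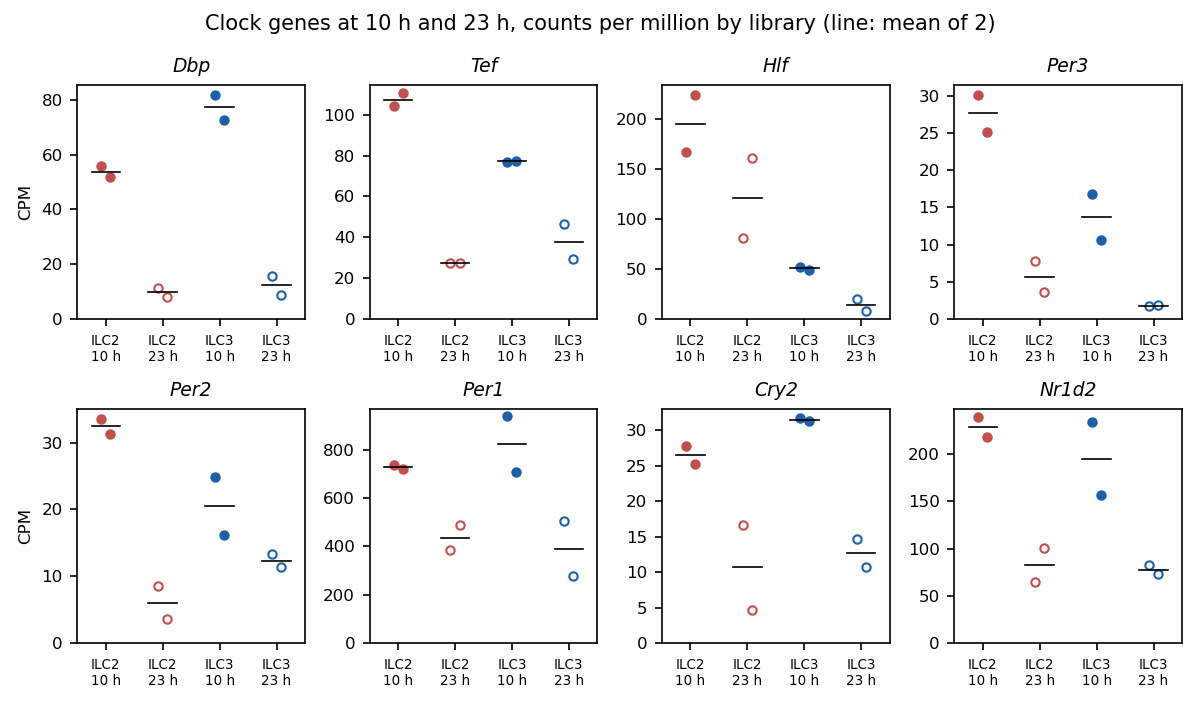
CPM (linear axis from 0) of 8 clock genes in each library, by cell type and time; filled circles are 10 h, open circles 23 h, and lines are the means of 2 libraries. Dbp sits between 51.7 and 81.8 CPM at 10 h and between 8.12 and 15.7 CPM at 23 h, and in each of the 8 panels the libraries of 23 h lie below those of 10 h within each cell type.

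Tef and Hlf encode the other proline- and acidic-rich basic leucine zipper (PAR bZIP) factors, which bind the same D-box element as DBP. Tef (chromosome 15, 81802673 to 81826863) was at 104 and 111 CPM at 10 h and 27.6 and 27.7 CPM at 23 h in ILC2. ILC3 had 76.9 and 77.5 CPM at 10 h and 46.4 and 29.5 CPM at 23 h. The times did not overlap in either cell type, and the log2 fold change was -1.49 ± 0.24 (adjusted p = 0.236), -1.96 ± 0.28 in ILC2 and -1.02 ± 0.27 in ILC3. Hlf was at 166 and 223 CPM at 10 h and 80.8 and 161 CPM at 23 h in ILC2, and at 52.2 and 49.3 CPM against 20.1 and 8.52 CPM in ILC3. Its log2 fold change was -1.25 ± 0.35 (adjusted p = 0.377), again with no overlap within a cell type. Nfil3, whose protein competes for the D-box as a repressor and is needed for the development of innate lymphoid cells, stood at 134 to 150 CPM in ILC2 at both times and had a log2 fold change of -0.26 ± 0.19. Its ILC3 libraries were at 248 and 219 CPM at 10 h and at 187 and 132 CPM at 23 h. Of these 4 genes, Dbp, Tef and Hlf had an unadjusted p under 0.05 and were lower. Over all genes tested 4.16% were lower at that level, and 6.41% were higher.

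The period, cryptochrome and REV-ERB genes encode the repressors of the loop. Per3 (chromosome 4, 150997018 to 151044707) was at 30.1 and 25.2 CPM at 10 h and 7.79 and 3.67 CPM at 23 h in ILC2. In ILC3 it was at 16.8 and 10.6 CPM at 10 h and 1.73 and 1.96 CPM at 23 h. Its log2 fold change of -2.58 ± 0.34 had an adjusted p of 0.124, and the times did not overlap in either cell type. Per2 (chromosome 1, 91415977 to 91459351) was at 33.6 and 31.3 CPM against 8.52 and 3.67 CPM in ILC2, and at 24.9 and 16.2 CPM against 13.4 and 11.4 CPM in ILC3. The log2 fold change was -2.43 ± 0.46 in ILC2 and -0.73 ± 0.43 in ILC3, and the difference of 1.70 ± 0.62 did not pass the test (adjusted p = 1.00). Per1, which also responds to glucocorticoids, was at 735 and 720 CPM against 384 and 489 CPM in ILC2 and at 936 and 707 CPM against 503 and 278 CPM in ILC3 (log2 fold change -0.90 ± 0.23). The 3 period genes thus had their 23 h libraries below their 10 h libraries in each cell type.

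Nr1d2, which encodes REV-ERB beta (chromosome 14, 18204056 to 18239106), was at 239 and 218 CPM at 10 h and 64.5 and 101 CPM at 23 h in ILC2. In ILC3 it was at 233 and 157 CPM at 10 h and 82.6 and 73.0 CPM at 23 h, and the log2 fold change was -1.40 ± 0.20 (adjusted p = 0.196). Its paralog Nr1d1, which encodes REV-ERB alpha, was at 37.1 and 27.6 CPM against 22.6 and 26.9 CPM in ILC2 and at 282 and 198 CPM against 102 and 77.1 CPM in ILC3. The log2 fold change of Nr1d1 was -0.37 ± 0.29 in ILC2 and -1.42 ± 0.29 in ILC3, a difference of -1.05 ± 0.41 that did not pass the test. Of the cryptochrome genes, Cry2 was at 27.8 and 25.2 CPM against 16.7 and 4.73 CPM in ILC2 and at 31.7 and 31.3 CPM against 14.6 and 10.8 CPM in ILC3 (-1.32 ± 0.34). Cry1 ranged from 35.0 to 48.5 CPM at 10 h and from 30.8 to 45.2 CPM at 23 h, with a log2 fold change of -0.18 ± 0.16.

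Of 14 repressor genes, 6 had an unadjusted p under 0.05, a level at which 4.16% of all genes were lower. All 6 were lower at 23 h: Per1, Per2, Per3, Cry2, Nr1d1 and Nr1d2. The same 6 were those with no overlap between the times within each cell type and one direction in both, a pattern that 5.04% of all genes showed as lower and 4.59% as higher. The DEC genes Bhlhe40 (-0.36 ± 0.24) and Bhlhe41 (0.96 ± 0.57), the kinase genes Csnk1d (-0.27 ± 0.16) and Csnk1e (-0.19 ± 0.22), which mark period proteins for turnover, the ubiquitin ligase gene Fbxl21 (-0.36 ± 0.31), and Ciart (-0.26 ± 0.84) did not pass at that level either. The list's median log2 fold change was -0.36, against 0.00 over all genes tested. Without ILC2 23 h replicate 2 it was -0.63, with 8 lower and 1 higher. In that fit 988 of all 14051 genes were lower and 1064 higher.

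Among the activators of the loop, Arntl, the partner gene of Clock, was at 33.1 and 38.2 CPM against 32.4 and 43.3 CPM in ILC2 and at 51.6 and 38.9 CPM against 36.5 and 37.0 CPM in ILC3, with overlapping times in ILC2. Its log2 fold change was -0.11 ± 0.19, that of Clock -0.32 ± 0.22 and that of Npas2, a paralog of Clock, 0.22 ± 0.31. Rora, a nuclear receptor gene that drives Arntl and is needed for ILC2 development, was lower at 23 h, at 347 and 344 CPM against 178 and 328 CPM in ILC2. In ILC3 Rora was at 251 and 143 CPM at 10 h and 103 and 87.0 CPM at 23 h, with a log2 fold change of -0.75 ± 0.26 over both (adjusted p = 0.393). Rorb, its relative, had 0 counts in all 8 libraries. Of the 5 activator genes tested, 1 (Rora) was lower at an unadjusted p under 0.05, against 4.16% of all genes.

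The other times of the series place these values within the day, as levels scaled over all 15 libraries and without a test. Dbp was at 30.5 and 28.0 CPM at 4 h and 20.3 CPM at 16 h (1 library) in ILC2, and at 22.4 and 23.8 CPM and 40.4 and 19.5 CPM in ILC3. All of these lay between the 10 h and the 23 h libraries of the same cell type. Tef was at 45.1 and 46.0 CPM at 4 h and 61.9 CPM at 16 h in ILC2, also between the times compared. In ILC3 its 4 h libraries were at 27.3 and 40.1 CPM and its 16 h libraries at 61.4 and 45.4 CPM. Both times overlapped with 23 h, at 46.0 and 29.3 CPM.

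Promoters of Dbp, Tef and Per3 are shown because all 3 were lower at 23 h and because clock factors act through short elements of known letters. The windows run from 250 bases before to 50 bases after a transcript start, are taken from RefSeq on GRCm38.p6 and read 5′ to 3′ on the gene's strand; capitals mark a match to a searched motif on either strand. The motifs were the E-box CACGTG, bound by CLOCK and BMAL1, the D-box TTATGTAA, bound by DBP, TEF, HLF and NFIL3, the core TAGGTCA of the element that REV-ERB and ROR receptors bind, and the sterol element TCACNCCAC, and their letters do not overlap in these windows. The window of Dbp is chr7:45704997-45705296 (plus strand), those of Tef are chr15:81802423-81802722 and chr15:81811164-81811463 (plus strand, 2 transcript starts), and that of Per3 is chr4:151044616-151044915 (minus strand).
Dbp: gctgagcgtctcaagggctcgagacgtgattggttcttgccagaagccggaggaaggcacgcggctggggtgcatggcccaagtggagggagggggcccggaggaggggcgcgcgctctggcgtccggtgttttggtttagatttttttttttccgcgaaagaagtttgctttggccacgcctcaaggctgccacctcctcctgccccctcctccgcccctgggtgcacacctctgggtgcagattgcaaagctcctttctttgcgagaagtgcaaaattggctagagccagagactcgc
Tef, first start: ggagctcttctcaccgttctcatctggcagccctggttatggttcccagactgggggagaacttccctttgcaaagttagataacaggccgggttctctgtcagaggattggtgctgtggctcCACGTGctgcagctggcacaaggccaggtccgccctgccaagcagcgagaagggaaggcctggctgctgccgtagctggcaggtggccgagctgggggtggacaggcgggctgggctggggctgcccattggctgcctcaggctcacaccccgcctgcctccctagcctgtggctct
Tef, second start: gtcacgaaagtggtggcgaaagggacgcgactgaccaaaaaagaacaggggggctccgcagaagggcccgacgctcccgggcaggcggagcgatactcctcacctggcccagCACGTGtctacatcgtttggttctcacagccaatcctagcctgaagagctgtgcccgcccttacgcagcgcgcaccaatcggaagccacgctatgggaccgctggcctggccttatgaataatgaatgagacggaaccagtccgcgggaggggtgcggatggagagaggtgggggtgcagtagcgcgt
Per3: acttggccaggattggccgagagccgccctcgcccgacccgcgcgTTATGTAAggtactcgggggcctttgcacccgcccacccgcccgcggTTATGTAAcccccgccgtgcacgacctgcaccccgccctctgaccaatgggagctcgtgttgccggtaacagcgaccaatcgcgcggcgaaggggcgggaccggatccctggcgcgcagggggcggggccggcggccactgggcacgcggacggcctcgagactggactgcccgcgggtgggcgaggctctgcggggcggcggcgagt
Each Tef window held 1 E-box, beginning 127 and 138 bases before the start, and the Per3 window held 2 D-boxes, beginning 205 and 158 bases before it. None of the searched letters were in the Dbp window. The E-box letters were in 7.15% of 32851 promoter windows and the D-box letters in 0.938%. Of the 24 clock genes 19 had an entry, and 5 of these (Bhlhe41, Ciart, Cry1, Per1 and Tef) held an E-box, 1 (Per3) a D-box and 2 (Arntl and Nfil3) the TAGGTCA core, which 2.61% of all windows held. Genes with and without a match are found among both the lower and the other clock genes.

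Of 30 common clock output genes, which follow the clock in many tissues, 19 had a negative and 11 a positive log2 fold change, with a median of -0.14. At an unadjusted p under 0.05, 5 were lower and 2 higher, against 4.16% and 6.41% of all genes. It was 6 lower and 1 higher without ILC2 23 h replicate 1. Tspan4, a tetraspanin gene, was at 6.77 and 10.1 CPM against 3.65 and 4.40 CPM in ILC2 and at 15.9 and 22.6 CPM against 5.94 and 3.79 CPM in ILC3 (log2 fold change -1.54 ± 0.34, adjusted p = 0.377). The cold-inducible RNA-binding gene Rbm3 was at -0.90 ± 0.25, the coenzyme Q gene Coq10b at -0.62 ± 0.17 and the glucocorticoid-responsive gene Klf9 at -0.73 ± 0.24. Pdk4, whose kinase turns cells from glucose to fat as fuel, went the other way, from 0 and 0.497 CPM to 2.07 and 1.28 CPM in ILC2 and from 0.519 and 0.716 CPM to 3.502 and 14.1 CPM in ILC3. The libraries of the 2 times did not overlap for Pdk4, at low counts. Its highest value was in ILC3 23 h replicate 2, the library with the highest epithelial sum. The log2 fold change was 3.15 ± 0.76, and 2.39 without that library.

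Of 29 genes of sterol and fatty acid synthesis, 14 were higher at 23 h and none lower at an unadjusted p under 0.05 over both cell types, against 6.41% and 4.16% of all genes. None passed edgeR's test at an adjusted p under 0.05. The enzymes turn acetyl groups into cholesterol and fatty acids, and most of the genes are switched on by SREBP factors when membrane sterol is low. Msmo1, a demethylase gene of the late pathway (chromosome 8, 64718123 to 64733578), was at 76.5 and 61.5 CPM at 10 h and 170 and 121 CPM at 23 h in ILC2. The ILC3 libraries had 58.3 and 68.6 CPM at 10 h and 109 and 131 CPM at 23 h. The 2 times stood apart in each cell type, and the log2 fold change was 1.00 ± 0.18 (adjusted p = 0.377), the smallest p of any gene higher at 23 h that met the naming rule.

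Idi1, an early enzyme gene that makes isoprenoid building blocks (chromosome 13, 8885606 to 8892396), was at 13.8 and 15.1 CPM against 39.7 and 30.2 CPM in ILC2 and at 30.5 and 30.3 CPM against 41.4 and 55.5 CPM in ILC3. Its log2 fold change was 0.96 ± 0.21. Hmgcs1, which encodes the synthase before the rate-limiting step (chromosome 13, 119690351 to 119708260), was at 97.5 and 79.8 CPM against 207 and 146 CPM in ILC2 and at 103 and 85.6 CPM against 147 and 138 CPM in ILC3 (0.79 ± 0.19). For Msmo1, Idi1 and Hmgcs1 every library of 23 h was above every library of 10 h of its cell type, and the adjusted p was 0.377 for each. Levels at 4 h and 16 h overlapped with those of 23 h for some, as for Msmo1 in ILC2 (117 and 147 CPM at 4 h and 117 CPM at 16 h, against 169 and 120 CPM at 23 h, scaled over 15 libraries).

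In ILC2 alone 15 of the 29 genes were higher at an unadjusted p under 0.05, against 1.81% of all genes. All 29 had a positive log2 fold change there. In ILC3 alone 4 were higher at that level, against 6.66% of all genes, and 23 of 29 were positive. The median was 0.50 over both cell types, 0.66 in ILC2 and 0.41 in ILC3, against 0.00 over all genes. Among 14 genes with no overlap between the times, chosen here after their values were seen, were Fdps (1.03 ± 0.26), Nsdhl (0.85 ± 0.23), Sqle (0.77 ± 0.20) and Fdft1 (0.90 ± 0.26). Members chosen here for values near 0 were the fatty acid enzyme genes Fasn (0.16 ± 0.19), Acaca (0.07 ± 0.26) and Acly (-0.09 ± 0.20) and the regulator genes Srebf1 (-0.00 ± 0.16), Srebf2 (0.02 ± 0.22) and Scap (-0.05 ± 0.19). The fatty acid desaturase gene Scd1 was at 1.21 ± 0.38. Abca1 and Abcg1, transporter genes that export sterol, were lower at 23 h, with log2 fold changes of -1.31 ± 0.40 and -0.95 ± 0.27. Abcg1 was at 61.7 and 69.1 CPM against 22.6 and 41.0 CPM in ILC2 and at 62.1 and 56.6 CPM against 45.3 and 20.1 CPM in ILC3.

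Leaving out each library in turn left 12 to 15 of the 29 sterol genes higher at an unadjusted p under 0.05. Without ILC3 23 h replicate 2, which held the most epithelial RNA, the median was 0.52, and without ILC2 23 h replicate 1, which held the most plasma cell RNA, it was 0.46. Without both it was 0.47, with 14 genes higher. DESeq2 called 7 of the 29 at an adjusted p under 0.05, all higher, and the other fits called none. Of all 14051 genes DESeq2 called 207 as higher.

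**Figure D2:**
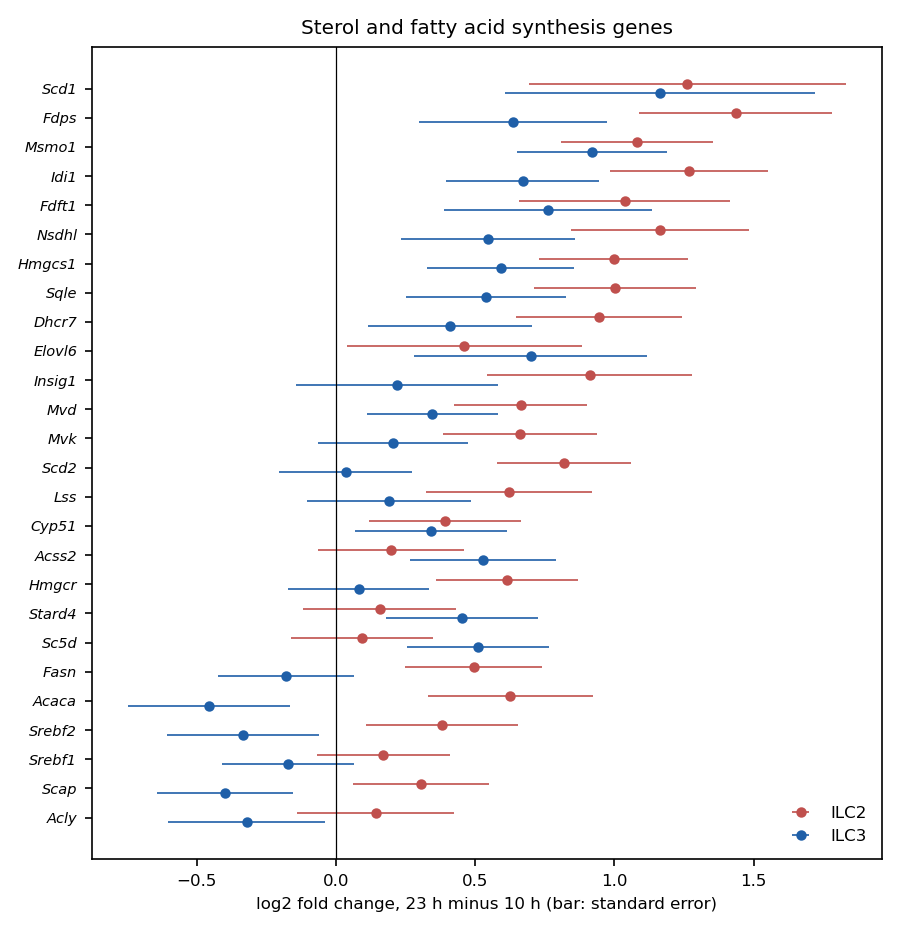
Log2 fold change, 23 h minus 10 h, of 26 of the 29 sterol and fatty acid synthesis genes in ILC2 and in ILC3, with standard errors as bars. All 26 drawn values are positive in ILC2 and 20 of them in ILC3; the other 3 genes are not reported here and not drawn.

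The window of Hmgcs1 is printed because it was the 1 among 19 sterol genes with an entry that held the sterol element TCACNCCAC, the binding site of SREBP, which 1.24% of all windows held. It is chr13:119690101-119690400 (plus strand, RefSeq on GRCm38.p6), with the element in capitals, beginning 137 bases before the start.
Hmgcs1: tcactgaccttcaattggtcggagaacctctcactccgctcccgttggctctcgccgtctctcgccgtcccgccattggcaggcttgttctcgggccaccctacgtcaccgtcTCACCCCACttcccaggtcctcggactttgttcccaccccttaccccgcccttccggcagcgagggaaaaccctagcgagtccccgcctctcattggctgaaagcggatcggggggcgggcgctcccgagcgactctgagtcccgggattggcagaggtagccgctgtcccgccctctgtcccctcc
The other 18 genes did not hold these exact letters in their windows.

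**Figure D3:**
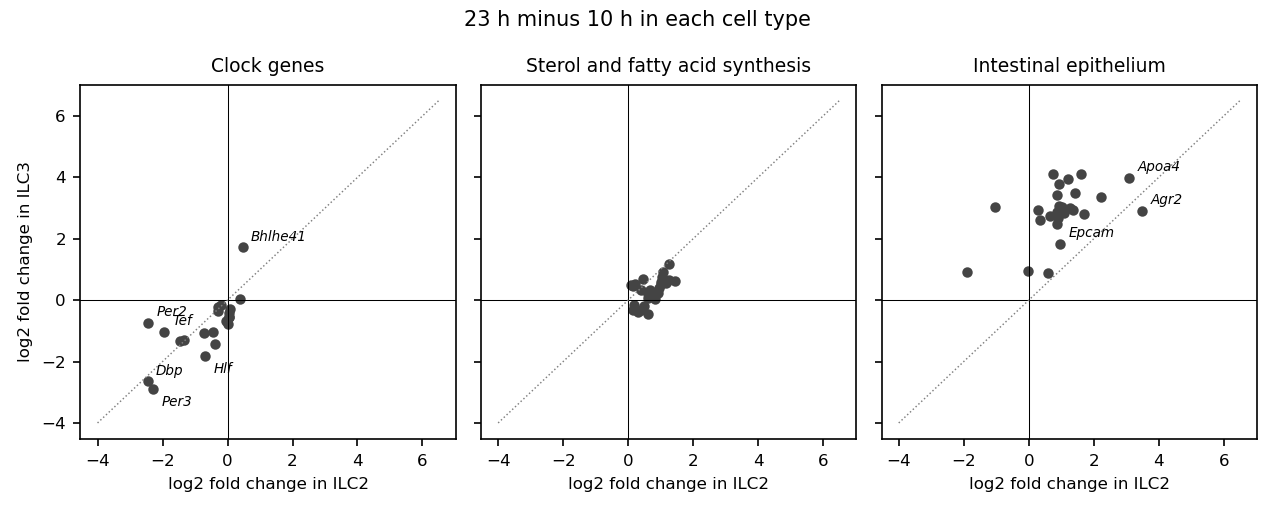
Log2 fold change, 23 h minus 10 h, in ILC2 (x axis) against ILC3 (y axis) for clock genes, sterol and fatty acid synthesis genes and intestinal epithelial genes; each point is 1 gene (genes not reported here are not drawn) and the dotted line marks equal values. Dbp (-2.46 and -2.64) and Per3 (-2.28 and -2.89) lie low on both axes, the sterol genes cluster to the upper right of 0, and most epithelial genes lie above the line, with medians of 0.92 in ILC2 and 2.94 in ILC3.

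Of 26 intestinal epithelial genes, 23 were higher at 23 h at an unadjusted p under 0.05 over both cell types, against 6.41% of all genes, and 12 had no overlap between the times, against 4.59%. None passed edgeR's test at an adjusted p under 0.05. In ILC3 alone 22 were higher at an unadjusted p under 0.05, against 6.66% of all genes. In ILC2 alone 2 were higher and 1 lower, against 1.81% and 1.57% of all genes. The median log2 fold change was 2.02, with 0.92 in ILC2 and 2.94 in ILC3. Epcam, the adhesion molecule gene of epithelial cells, was at 75.2 and 62.1 CPM against 147 and 120 CPM in ILC2 and at 127 and 110 CPM against 182 and 667 CPM in ILC3 (1.41 ± 0.37, adjusted p = 0.377). Agr2, an isomerase gene of mucus-secreting cells, was at 1.504 and 0.939 CPM against 11.3 and 13.9 CPM in ILC2 and at 14.6 and 4.93 CPM against 18.0 and 130 CPM in ILC3 (3.14 ± 0.61). The goblet cell mucin gene Muc2 (2.20 ± 0.55) and the lipoprotein gene Apoa4 (3.60 ± 0.74) were also among those with the smallest p in the list. Summed over the 26 genes, the level was 480 and 620 CPM at 10 h and 774 and 1230 CPM at 23 h in ILC2, and 957 and 824 CPM against 1578 and 11610 CPM in ILC3. The sums of the 2 times did not overlap in either cell type, and no gene of the list was at 0 in all libraries. Libraries of the same time also differed, as seen at 4 h in levels scaled over 15 libraries. There Agr2 was at 0 and 23.2 CPM in ILC2 and at 3.17 and 50.3 CPM in ILC3. Muc2 was at 0 and 30.3 CPM and at 0 and 48.4 CPM, and Epcam at 46.2 and 116 CPM and at 122 and 295 CPM. Without ILC3 23 h replicate 2 the median was 1.04, with 15 higher and 1 lower. The count of 23 was 13 without ILC3 10 h replicate 1, 14 without ILC3 10 h replicate 2, 15 without ILC2 23 h replicate 2 and 8 in a fit over all 15 libraries. Over all 14051 genes the higher count was 900 in the main fit. It was 432, 447, 1064 and 661 in these fits, in the order given.

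By the naming rule, the genes with the smallest p among those higher at 23 h were Ppp1r14d, Tspan7, Agr2, Perp, Pkp2, Fahd1, Aqp4, Baiap2l1, Dnajc22 and Erbb2, beside Msmo1 and Idi1. Perp and Pkp2 encode parts of desmosomes, the rivets between epithelial cells, Erbb2 a growth factor receptor and Aqp4 a water channel. All 10 were highest in ILC3 23 h replicate 2. Perp was at 2.76 and 4.804 CPM against 12.7 and 13.2 CPM in ILC2 and at 9.30 and 12.4 CPM against 24.8 and 93.9 CPM in ILC3. Erbb2 was at 2.51 and 1.60 CPM against 6.45 and 8.68 CPM in ILC2 and at 8.86 and 3.82 CPM against 11.7 and 42.1 CPM in ILC3. Their log2 fold changes ran from 1.57 ± 0.34 (Pkp2) to 3.14 ± 0.61 (Agr2), and without that library they were between 1.35 (Pkp2) and 2.32 (Agr2). The part of epithelial RNA in these differences was not tested.

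Beyond the clock, 7 of the genes that the naming rule gave as lower at 23 h are described next. None passed edgeR's test at an adjusted p under 0.05. Mepce (chromosome 5, 137781906 to 137786701) caps the 7SK RNA that holds back transcription elongation. It was at 115 and 115 CPM against 54.6 and 49.6 CPM in ILC2 and at 151 and 124 CPM against 78.8 and 70.1 CPM in ILC3 (-1.01 ± 0.16, adjusted p = 0.236). Hexim1 (chromosome 11, 103116325 to 103119725), an inhibitor in the same complex, was at 206 and 207 CPM against 129 and 137 CPM in ILC2 and at 360 and 322 CPM against 200.2 and 164 CPM in ILC3 (-0.77 ± 0.16). The times were apart in both cell types for both genes. Wsb1, a ubiquitin ligase adaptor gene, was at -0.88 ± 0.17, the cyclin gene Ccnl1 at -1.01 ± 0.21, the deubiquitinase gene Usp38 at -0.82 ± 0.18, the membrane receptor gene Heg1 at -0.89 ± 0.18 and Midn, which takes proteins to the proteasome, at -0.78 ± 0.17. Each of these had an adjusted p of 0.377. Without ILC3 23 h replicate 2, Hexim1 was the nearest to 0 of these 7 genes, at -0.69.

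Immediate-early genes, which respond within minutes to activation, had 5 of 24 lower and 1 higher at an unadjusted p under 0.05, against 4.16% and 6.41% of all genes. Without ILC2 23 h replicate 2 it was 8 lower and 3 higher, without ILC3 23 h replicate 2 it was 4 and 2, and without that library and ILC2 23 h replicate 1 together it was 2 and 2. The orphan receptor gene Nr4a2 (chromosome 2, 57106830 to 57124003) was at 219 and 288 CPM against 74.3 and 108 CPM in ILC2 and at 555 and 597 CPM against 374 and 175 CPM in ILC3 (-1.27 ± 0.26). Its paralog Nr4a3 was at 572 and 526 CPM against 332 and 447 CPM in ILC2 and at 890 and 698 CPM against 320 and 350 CPM in ILC3 (-0.87 ± 0.22). Both receptors were lower at 23 h without overlap in each cell type. Fosl2, a subunit gene of the AP-1 factor (-0.74 ± 0.24), and Klf4 (-0.74 ± 0.24) showed the same, whereas Klf6, named after its values were seen, was higher (0.49 ± 0.18). The list's median was -0.12, against 0.00 over all genes.

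Receptor and cytokine genes of the cells themselves had some members lower and none higher at an unadjusted p under 0.05. At that level 4.16% of all genes were lower and 6.41% higher. Of 18 surface receptor and activation genes, 3 were lower at an unadjusted p under 0.05 and none higher. The checkpoint gene Ctla4 was at 268 and 203 CPM against 147 and 141 CPM in ILC2 and at 58.7 and 77.3 CPM against 49.8 and 36.2 CPM in ILC3 (-0.69 ± 0.18). Il7r, the receptor gene for the survival cytokine of innate lymphoid cells, was at -0.75 ± 0.24, and Il2rb at -0.51 ± 0.22. Of 27 ILC2 signature genes, 2 were lower, Il2ra (-0.87 ± 0.27) and Icos (-0.70 ± 0.29), and of 26 ILC3 signature genes 3 were lower, Tnfsf11 (-0.67 ± 0.24), Il23r (-0.90 ± 0.34) and Tcf7 (-0.79 ± 0.32). Il22 was at 866 and 527 CPM at 10 h and 548 and 489 CPM at 23 h in ILC3, with overlap between the times. In the same way, NF-kB genes had 3 of 22 lower (Rel, Tnf and Nfkb1, with log2 fold changes from -0.67 to -0.52). In the order given, the lower genes of these 4 lists numbered 2, 1, 1 and 0 without ILC3 23 h replicate 2, and 2, 1, 3 and 1 without ILC2 23 h replicate 1, where 2 ILC2 signature genes were higher. They numbered 2, 1, 0 and 0 without ILC3 10 h replicate 1 and 5, 4, 9 and 5 without ILC2 23 h replicate 2. Over all 14051 genes the lower count was 585 in the main fit. It was 379, 480, 217 and 988 in these 4 fits, in the order given. The medians of the 4 lists lay between -0.26 and -0.06, and between -0.16 and 0.08 without ILC3 23 h replicate 2.

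All 38 genes of oxidative phosphorylation, the mitochondrial chain that makes ATP, had a positive log2 fold change, with a median of 0.43. But 2 (Ndufs7, 0.62 ± 0.20, and Cycs, 0.60 ± 0.26) had an unadjusted p under 0.05, a level at which 6.41% of all genes were higher. Without ILC3 23 h replicate 2 the median was 0.19, and the count of higher genes ran from 1 to 16 when single libraries were left out, with 16 without ILC2 23 h replicate 2. Of 18 heat shock and cold-inducible genes, 16 had a positive value and 4 were higher at an unadjusted p under 0.05, against 6.41% of all genes. Dnajb1, a cochaperone gene, was at 333 and 326 CPM against 1129 and 319 CPM in ILC2 and at 294 and 308 CPM against 445 and 600 CPM in ILC3, so that in ILC2 only replicate 1 of 23 h was high. Without that library 0 of 18 were at this level by edgeR, and without ILC2 10 h replicate 1 it was 1. Among 20 glycolysis genes 3 were lower and 1 higher, against 4.16% and 6.41% of all genes. The lower genes were Hk2 (-0.87 ± 0.25), Slc2a3 and Pfkfb3, and the higher gene was Tpi1 (0.63 ± 0.26). The lower count was 1 with library size as the only scaling and 1 without each of ILC2 10 h replicate 2, ILC2 23 h replicate 1, ILC3 10 h replicate 2 and ILC3 23 h replicate 2. Without the last of these Tpi1 was at 0.29 and no glycolysis gene was higher at that level. Cell division genes had a median of 0.44, which was 0.01 without ILC3 23 h replicate 2. Ribosomal protein genes had a median of -0.24 in ILC2, where 3 of 44 were positive, and of 0.27 in ILC3, where 42 of 44 were positive. Over both cell types the median was 0.02, it was -0.01 with library size as the only scaling, and it ran from -0.13 to 0.185 when single libraries were left out.

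**Figure D4:**
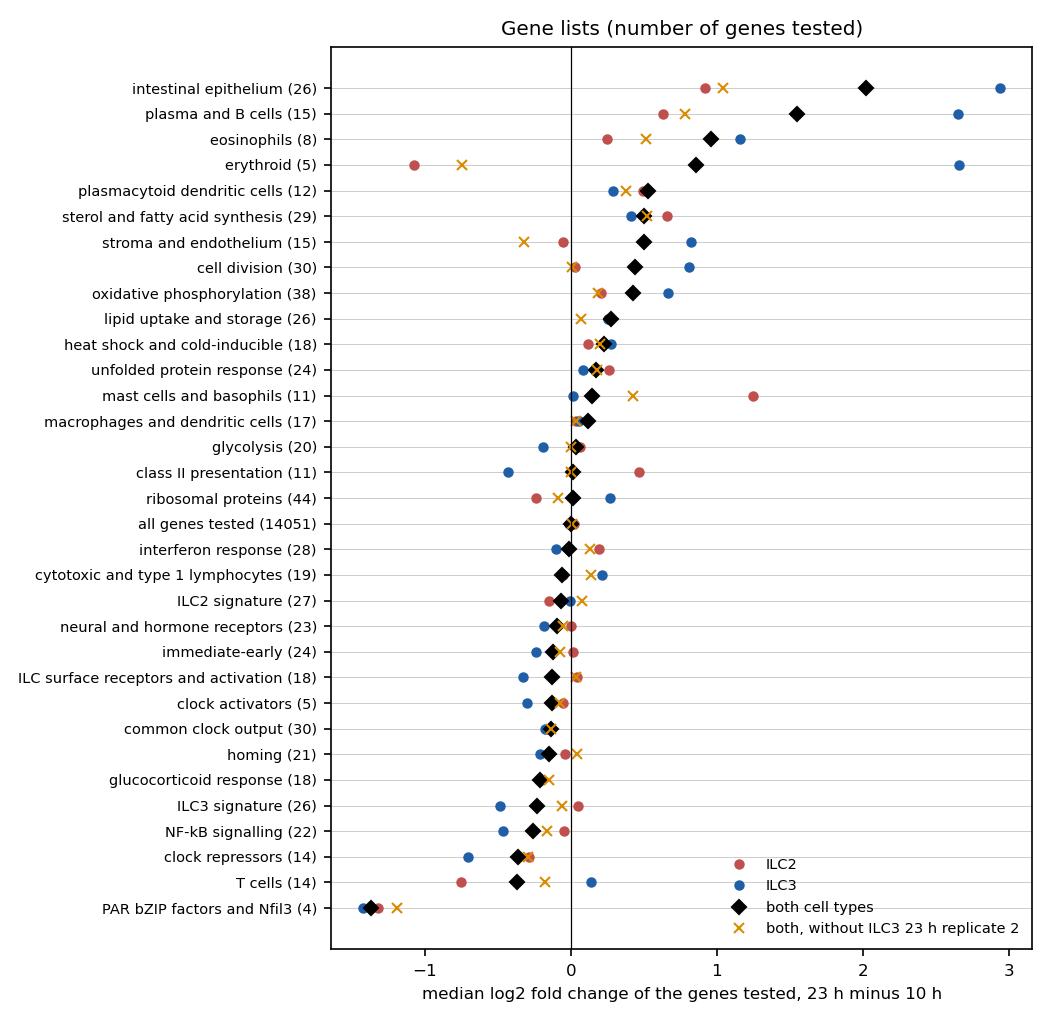
Median log2 fold change, 23 h minus 10 h, of each gene list and of all 14051 genes tested (number of genes tested in brackets), for ILC2, ILC3, both cell types, and both without ILC3 23 h replicate 2. The PAR bZIP list lies at -1.37 and the epithelial list at 2.02; the median of the epithelial list is 1.04 and that of the sterol list 0.52 without that library.

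Markers of other cells that a sort can carry over were measured in every library. Over all genes tested, 6.41% were higher and 4.16% lower at an unadjusted p under 0.05. Plasma and B cell genes were higher at an unadjusted p under 0.05 for 6 of 15, with a median of 1.55, or 0.78 and 2 genes without ILC3 23 h replicate 2. Without ILC2 23 h replicate 1 none was higher and 1 was lower by edgeR. The count was 1 by limma-voom, 3 without ILC2 10 h replicate 2 and 2 without either ILC3 library of 10 h. Their summed level was 50590 and 37110 CPM at 10 h and 161800 and 19800 CPM at 23 h in ILC2, so the times overlapped. In ILC3 it was 802 and 738 CPM against 2042 and 4839 CPM. Jchain, the joining chain gene of secreted antibodies, was at 48288 and 36424 CPM against 189872 and 18232 CPM in ILC2 and at 302 and 271 CPM against 1448 and 4128 CPM in ILC3. Plasmacytoid dendritic cell genes had 5 of 12 higher, with sums of 2613 to 4731 CPM in ILC2 and 522 to 746 CPM in ILC3, and overlap between the times in both. The highest sum was in ILC2 23 h replicate 1. The count of 5 was 1 without that library, 1 without ILC3 10 h replicate 1, 3 without either ILC2 library of 10 h or ILC3 10 h replicate 2, and 0 by limma-voom. Mast cell genes had 2 of 11 higher, the protease genes Mcpt1 (1.36 ± 0.52) and Mcpt2 (1.58 ± 0.62), with sums of 1346 to 1380 CPM at 10 h and 1761 to 3313 CPM at 23 h in ILC3. In ILC2 their sums were 83.2 and 17.9 CPM at 10 h and 190 and 81.0 CPM at 23 h, which overlap. Of the 11 mast cell genes, 7 had a positive and 4 a negative log2 fold change. Hdc went from 27.3 and 13.8 CPM to 11.9 and 9.65 CPM in ILC3, scaled over 15 libraries. Tpsb2 went from 2.97 and 8.84 CPM to 0.792 and 2.19 CPM there. The list's median of 0.15 was -0.47 without ILC2 23 h replicate 1 and -0.35 without ILC3 23 h replicate 1, with no gene higher at that level by edgeR in either case. Erythroid genes summed to 1502 CPM in ILC3 23 h replicate 2 and to 32.7 to 128 CPM in the other 7 libraries, and 0 of 5 passed by edgeR at an unadjusted p under 0.05 (2 were lower without that library).

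For the remaining cell types the sums overlapped between the times in at least 1 cell type. T cell genes, with 0 of 14 at that level by edgeR and 7 lower without ILC3 23 h replicate 1, summed to 619 to 1507 CPM in ILC2 and 1038 to 3554 CPM in ILC3. The list of cytotoxic and type 1 lymphocytes had 1 of 19 higher, Ccl9 (1.36 ± 0.31), against 6.41% of all genes, and sums of 587 to 1040 CPM and 2588 to 6406 CPM. In this list 9 genes were positive and 10 negative. Over the ILC2 libraries of the series, Ccl9 was highest (80.2 CPM) and lowest (5.98 CPM) where Lyz2 of the macrophage list was too (1307 and 129 CPM). In ILC3 both were lowest in 10 h replicate 1 (11.4 and 506 CPM). Ccl9 was highest there in 23 h replicate 2 (50.7 CPM, with Lyz2 at 1353 CPM). Lyz2 was highest in 4 h replicate 1 (1495 CPM, with Ccl9 at 22.4 CPM). Which cells the Ccl9 RNA came from was not tested. Macrophage and dendritic cell genes had 1 of 17, Lyz1 (1.96 ± 0.76), and sums of 653 to 2073 CPM and 2359 to 6861 CPM. In ILC3 alone 1 was higher and 3 lower at that level, against 6.66% and 3.89% of all genes. There 10 of 17 had a positive value. Xcr1 of this list went from 45.3 and 46.8 CPM to 7.13 and 12.9 CPM in ILC3, scaled over 15 libraries. Flt3 went from 170 and 171 CPM to 85.1 and 95.4 CPM. In ILC2 the times overlapped for both. Lyz1, a lysozyme gene that Paneth cells of the epithelium also express, was at 3869 CPM in ILC3 23 h replicate 2 and at 108 to 456 CPM in the other 7 libraries. Without that library it was at 0.55 and no gene of the list was at that level by edgeR. Without ILC2 10 h replicate 1 it was 8 of 17. Eosinophil genes had 1 of 8, and none without either ILC2 23 h replicate 1 or ILC3 23 h replicate 2, with sums of 35.6 to 400.5 CPM in ILC2 and 32.7 to 46.3 CPM in ILC3. Stromal and endothelial genes had 0 of 15, with sums of 293 to 454 CPM and 498 to 781 CPM. Ear6 of eosinophils and Tpsab1 of mast cells were at 0 counts in all 8 libraries. The part of these cells in the differences between the times was not tested.

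**Figure D5:**
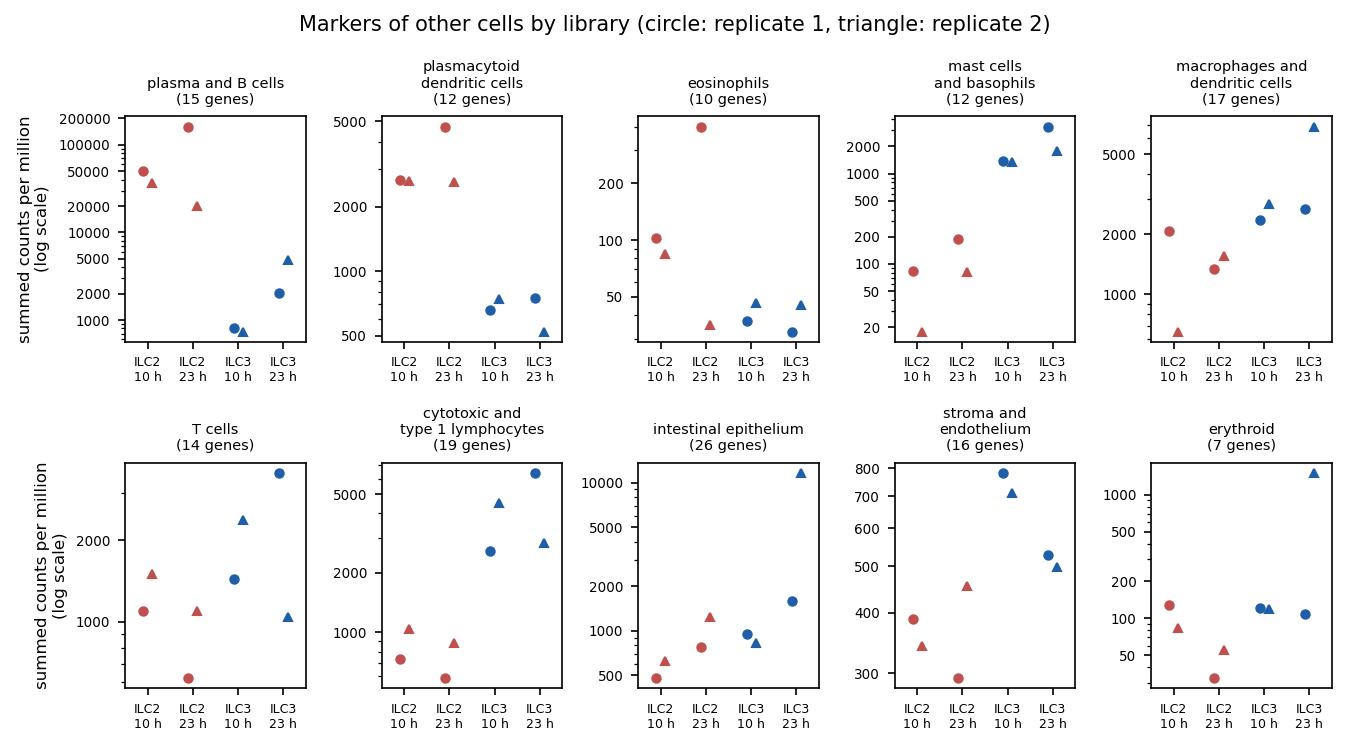
Summed CPM (log scale) of 10 lists of markers of other cells in each library; red is ILC2, blue ILC3, circles are replicate 1 and triangles replicate 2. The epithelial sum is 11610 CPM and the erythroid sum 1502 CPM in ILC3 23 h replicate 2, and the plasma and B cell sum is 161800 CPM in ILC2 23 h replicate 1.

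Within a single cell type, where each comparison has 2 libraries against 2 in 1 batch, edgeR called no gene at an adjusted p under 0.05. In ILC2, 254 genes (1.81%) were higher and 220 (1.57%) lower at an unadjusted p under 0.05, or 3.37% in all. The lowest adjusted p was 0.364, and DESeq2 called 13 genes and limma-voom none. In ILC3, 936 genes (6.66%) were higher and 547 (3.89%) lower at that level. The lowest adjusted p was 0.326, and DESeq2 called 446 and limma-voom none. Dbp had the adjusted p of 0.364 in ILC2 and 0.326 in ILC3. Without ILC3 23 h replicate 1, which leaves the library rich in epithelial RNA alone at 23 h, edgeR called 614 genes in ILC3, on the assumption that the lone library varies like the other groups.

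The test of whether the difference between the times was itself different in ILC3 and ILC2 called no gene by edgeR, 3 by DESeq2 and none by limma-voom. At an unadjusted p under 0.05, the log2 fold change of ILC3 minus that of ILC2 was positive for 266 genes (1.89%). It was negative for 225 (1.6%), which made 3.49% in all. The adjusted p was 1.00 for each gene named here. Tlr3, a receptor gene for double-stranded RNA, was at 1.25 and 0.939 CPM against 2.68 and 4.34 CPM in ILC2 and at 31.2 and 28.7 CPM against 6.92 and 11.2 CPM in ILC3. Naaa, a lipid amidase gene, was at 24.3 and 18.5 CPM against 29.3 and 35.6 CPM in ILC2 and at 212 and 233 CPM against 79.8 and 96.0 CPM in ILC3, a difference between the log2 fold changes of -1.96 ± 0.36. Both were higher at 23 h in ILC2 and lower in ILC3 without overlap, as were Ifi205, Tbc1d8 and Htr7. Xcr1 and Flt3, of the macrophage and dendritic cell list, were also lower in ILC3 without overlap, but their times overlapped in ILC2. The part of dendritic cells in these differences was not tested. Zg16, a goblet cell lectin gene, had the opposite sign (4.82 ± 0.99), at 72.97 and 315 CPM in the ILC3 libraries of 23 h against 8.74 and 7.95 CPM at 10 h and 8.77 to 24.8 CPM in ILC2.

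Over both cell types, 1485 of 14051 genes (10.6%) had an unadjusted p under 0.05, of which 900 were higher and 585 lower, and 1353 (9.63%) had no overlap between the times within each cell type and one direction in both. The share of higher genes was 60.6% and was 49.8% by limma-voom. It was 46.2% to 71.0% when single libraries were left out. DESeq2 called 269 genes, 207 higher and 62 lower, where edgeR called 1 and limma-voom 1. A count of 1 does not show that other genes were equal at the 2 times.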

How the data were processed

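The authors deposited raw read counts per gene (whole numbers, no normalization) under Entrez identifiers, 1 file per library. Per the submitters' processing notes, featureCounts did the counting on mm10. For the aligner, the strand setting, the sorting gates and the handling of multi-mapping reads the sources used here give nothing, so values of near-identical or overlapping genes, such as Mcpt1, Mcpt2 and the globin genes, are uncertain. RNA was taken with a column kit and 100 ng per library went into polyA libraries, per the labels.

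Of 22797 genes, 22718 were named through the RefSeq table of GRCm38.p6, which is the mm10 build. Genes were kept by filterByExpr (minimum count 10), which left 14051. TMM factors scaled the counts, and edgeR 4.0.16 under R 4.3.3 fitted cell type and time (5 residual degrees of freedom, biological coefficient of variation 0.387). Single cell types and their difference came from a fit of 4 group means (4 residual degrees of freedom). Adjusted p-values are Benjamini-Hochberg values over all 14051 genes, called under 0.05. Replicates differed beyond sampling noise (chi-square over its degrees of freedom from 23.3 to 242.9), and each counted as its own sample.

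The libraries compared and 32 gene lists (638 symbols, 636 found) were chosen with earlier results of these data known. Named genes were the clock genes, up to 15 called genes in each direction, filled up to 12 with genes of smallest p that had no overlap between the times and at least 10 CPM at the higher time, up to 4 genes of smallest p in each other list, and the 5 of smallest p in each direction of the difference between cell types. Predicted genes were skipped, and genes named outside this rule are said to be. Some genes that the rule names are not reported here. Alternatives were other scalings, filters and tools (DESeq2 1.42.0, limma-voom 3.58.1), a fit of all 15 libraries, a replicate block, Jchain left out, and each library left out. The fit was tested on simulated counts.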

Additional observations from a re-analysis of the deposited data

How the results depend on the processing

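The count of 1 called gene over both cell types was 1 with RLE size factors, library size as the only scaling, limma-voom, a stricter filter and Jchain left out. It was 269 (207 higher, 62 lower) with DESeq2, 28 (22 higher, 6 lower) without a filter on low counts and 2, both lower (Dbp and Tef), in the fit of all 15 libraries. Leaving out each library in turn gave 0 to 1, all lower. With the replicate block it was 1, Dbp. Replicate numbers were not shown to pair the libraries: deviations of same-numbered libraries from their group means had a correlation of 0.0966 in ILC2 and -0.125 in ILC3. Pairing ILC3 replicates crosswise as a block, chosen after seeing the data, gave 2 calls, both lower. The cause of these moves was not tested.

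Within ILC2 the count of 0 was 13 with DESeq2 and 2 without a filter. Within ILC3 it was 446 with DESeq2, 333 without a filter and 0 to 614 with single libraries left out. For the difference between the cell types it was 3 with DESeq2, 1 without a filter and 0 to 2 with single libraries left out. The number of genes at an unadjusted p under 0.05 over both cell types ran from 649 (without ILC3 10 h replicate 1) to 2062 (without ILC3 23 h replicate 1), with 786 without ILC3 23 h replicate 2 and 968 without ILC3 10 h replicate 2. With single libraries left out, 407 to 1267 genes were higher and 217 to 988 lower. The shares of 6.41% and 4.16% therefore do not apply to list counts from those fits.

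The signs of 109 results of named genes were followed. These were fold changes over both cell types and, for some genes, the difference between the cell types. Of them, 4 changed sign under some alternative, each a fold change over both cell types, and none of these 4 genes was called in any fit. With single libraries left out the log2 fold change ran from -0.24 to 0.0174 for Arntl, from -1.46 to 0.10 for Ciart and from -0.59 to 1.59 for Hbb-b1. Without ILC2 23 h replicate 1 and ILC3 23 h replicate 2 together, an alternative chosen after seeing the data, it was 0.00712 for Arntl, -0.0356 for Bhlhe41 and -0.47 for Hbb-b1. The median of the plasma and B cell list was then 0.34 and that of the eosinophil list -0.18.

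Each group held 2 libraries, which limits the precision of every fold change. The smallest library held 4016298 counts, so genes with few counts, such as Per3 in ILC3 at 23 h or Pdk4, carry wide errors.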

Other observations

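Receptors for hormones and neural signals also had members on both sides of 0. The median log2 fold change of 23 genes was -0.09. At an unadjusted p under 0.05, 4 were lower and 2 higher, against 4.16% and 6.41% of all genes. These counts were 2 and 2 without ILC2 23 h replicate 1, 2 and 1 without ILC3 23 h replicate 2, and 7 and 1 without ILC2 23 h replicate 2. Calcrl, a receptor gene for the neuropeptide CGRP, was at 42.4 and 38.0 CPM against 20.4 and 28.2 CPM in ILC2 and at 20.1 and 19.4 CPM against 15.7 and 14.3 CPM in ILC3 (-0.56 ± 0.19). For this gene the libraries of 23 h lay below those of 10 h in each cell type. The retinoic acid receptor gene Rara was at -0.51 ± 0.21. The vitamin D receptor gene Vdr was higher (1.91 ± 0.50), at 6.02 and 6.85 CPM against 17.0 and 27.1 CPM in ILC2 and at 24.4 and 14.2 CPM against 19.99 and 138 CPM in ILC3, the last of these in the library with the highest epithelial sum.

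The median of 18 glucocorticoid-responsive genes was -0.21. At an unadjusted p under 0.05, 4 were lower and 2 higher, against 4.16% and 6.41% of all genes. These counts were 3 and 0 without ILC2 23 h replicate 1 and 3 and 1 without ILC3 23 h replicate 2. Of 26 genes of lipid uptake and storage, 6 were higher and 2, Abca1 and Abcg1, were lower, and the median of 0.27 was 0.07 without ILC3 23 h replicate 2, with 2 higher and 2 lower. Slc27a2, a fatty acid transporter gene, was at 0.501 and 0.497 CPM against 2.07 and 2.62 CPM in ILC2 and at 3.35 and 3.94 CPM against 3.86 and 31.6 CPM in ILC3. For the next 2 lists, the shares of all genes at an unadjusted p under 0.05 were 6.41% higher and 4.16% lower. Homing genes had 1 of 21 higher, Ccr10 (1.35 ± 0.53), and 1 lower, the integrin gene Itga4 (-0.69 ± 0.27), and none in either direction without ILC2 23 h replicate 1 or without ILC3 23 h replicate 2. The unfolded protein response had 1 of 24 higher, Ddit3 (0.53 ± 0.23), against 6.41% of all genes, and a median of 0.17. Without ILC2 23 h replicate 1 it had 2 lower and none higher, with a median of -0.12, and without ILC2 23 h replicate 2 it had 5 higher and 1 lower. By edgeR, 0 of 28 interferon-response genes and 0 of 11 class II presentation genes were at an unadjusted p under 0.05.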
